A study of Homo sapiens with 22 samples.

Results

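The cytosolic small ribosomal subunit (40S) reads mRNA during translation, and its protein genes are among the most highly expressed genes of a growing cell. The genes described here are RPS6, RPS14, RPS15A, RPS10 and RPS19. They were taken as every listed exonic bin of the 5 gene models RPS6, RPS14, RPS19, ARL6IP1andRPS15A and RPS10andNUDT3. These models held 51 of the 2635 exonic bins listed for 636 gene models. The last pair of names joins a ribosomal protein gene to its neighbour, and separating the neighbours by position left 33 small-subunit bins on 5 chromosomes. An exonic bin is a piece of exon between adjacent exon boundaries of a gene model. Bin numbers ran up to 40 in RPS6, 26 in RPS14 and 28 in RPS19, where 10, 6 and 3 bins were listed. Most bins of these models were therefore not listed, and their values are unknown. Below, the bins, ends and edges of a gene are those of its listed bins alone, and do not describe the whole gene. All models in the table carry listed N6-methyladenosine (m6A) sites.

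The cells were HEK293T, an established line from human embryonic kidney, in 12 RNA-seq libraries of 6 groups of 2. The groups were HNRNPG knockdown KD1 and HNRNPG knockdown KD2 with the wild-type controls of the HNRNPG series, and METTL3 knockdown and METTL14 knockdown with the wild-type controls of the METTL series. HNRNPG, encoded by RBMX, is a nuclear RNA-binding protein of splicing, and METTL3 and METTL14 are the partner subunits of the nuclear enzyme that writes m6A. The sources used here do not state the knockdown agents, the time after knockdown, what sets KD1 apart from KD2, or whether the 2 libraries of a group were separate cultures. The study asked whether m6A brings HNRNPG to RNA to regulate splicing. Another 10 libraries of HNRNPG crosslinking (PAR-CLIP) were not analysed here.

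Each value is a change in exon usage, on the log2 scale, of knockdown over control. Usage is the amount of a bin relative to the rest of its gene model, so a lower value in 1 bin goes with higher values elsewhere in the model, and a change of the whole gene does not show. A value of -1 means a usage of 0.5 of control. The values come from the authors' comparisons of groups, with no value per library, no error and no p-value used here. The authors deposited them as control over knockdown. Their sign is turned here, also where a value is credited to the authors' deposited table. Medians and shares credited to it were computed here from its values. Nothing below was therefore tested, the spread between replicates cannot be set beside any value, and the read depth of a bin is unknown. KD1 and KD2 were set against the same controls, and METTL3 and METTL14 knockdown against another shared pair. Levels of RBMX, METTL3 and METTL14 were not analysed here, so the knockdowns themselves were not checked.

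Ribosomal protein mRNAs are known for a terminal oligopyrimidine start: transcription begins at a C followed by a run of C and T letters, through which mTOR signalling controls their translation. Their mature mRNAs are short, while the AceView-type models used here also hold rare transcripts with other starts and with intron sequence. The annotated starts are shown here for the genes with an entry. In RPS6, RPS15A and RPS10 several listed bins lie close to the 5′-most listed base, and whether that base is an annotated start was not checked. Their coordinates are of another build than those of the bins and were not carried over. RefSeq promoter entries (GRCh38.p14) matched 4 of the 5 genes, RPS6, RPS14, RPS10 and RPS19. Each window gives the 10 bases before the RefSeq start and 20 bases from it, on the gene's strand, with the run of C and T from the start in capitals. The windows lie at chr9:19380217-19380246, minus strand, for RPS6, at chr5:150449720-150449749, minus strand, for RPS14, at chr6:34426050-34426079, minus strand, for RPS10, and at chr19:41860245-41860274, plus strand, for the first RefSeq start of RPS19.
RPS6: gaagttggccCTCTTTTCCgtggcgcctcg
RPS14: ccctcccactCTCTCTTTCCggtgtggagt
RPS10: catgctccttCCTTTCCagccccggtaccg
RPS19: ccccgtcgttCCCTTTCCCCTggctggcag

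The runs were 9 letters long in RPS6, 10 in RPS14, 7 in RPS10 and 11 in RPS19. A C at the start followed by C or T letters up to a run of at least 5 was found, on the gene's strand, in 1429 of 35116 RefSeq promoter entries (4.07%), and in 21 of the 31 entries of small-subunit genes (67.7%). The second RefSeq start of RPS19 had no such run. These letters describe the genes, and their relation to the values below was not tested.

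In every knockdown, all small-subunit bins that reached 0.5 in size, the threshold used here for a called bin, were lower. In METTL3 knockdown, 7 of the 33 bins (21.2%) were lower by at least 0.5, against 14.8% of all bins in the authors' deposited table. METTL14 knockdown had 3 such bins (9.09%), against 10.6% of all bins. In HNRNPG knockdown, 1 bin was lower by at least 0.5 in both KD1 and KD2 (3.03%), against 4.1% of all bins. Taken alone, KD1 had 1 such bin against 9.03% of all bins, and KD2 had 4 (12.1%) against 13.9%. No small-subunit bin was higher by at least 0.5 in any knockdown. Among all bins, the share higher by that size was 7.63% in METTL3 and 5.46% in METTL14 knockdown, 3.04% in KD1 and KD2 together, 6% in KD1 and 7.78% in KD2. The 33 bins come from 5 genes and 15 neighbouring pairs of them touch, so they are not independent counts. The called bins belonged to RPS6, RPS14 and RPS10, and RPS15A and RPS19 had none.

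Counted by sign alone, the small-subunit bins lay furthest from the whole table in METTL3 knockdown. There, 28 of the 33 bins were below 0 (84.8%) and the median bin was at -0.23, against 53.4% below 0 and a median of -0.04 over all bins of the authors' deposited table. Of the 33 bins, 12 were under 20 bp, and among the longer ones 17 of 21 were below 0 (81.0%) with a median of -0.21 in METTL3 knockdown, against 53.2% of all bins of that length. The other 3 comparisons lay nearer to the whole table. Bins below 0 numbered 20 in KD1 (60.6%, against 54.0% of all bins), 15 in KD2 (45.5% against 56.8%) and 18 in METTL14 knockdown (54.5% against 56.2%). Their medians in the authors' deposited table were -0.06 in KD1, 0.02 in KD2 and -0.01 in METTL14 knockdown, against -0.04, -0.06 and -0.04 over all bins. No test was run on these shares, since bins of 1 gene share their libraries and their gene model, and the sources used here do not state how bins came to be listed.

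**Figure D1:**
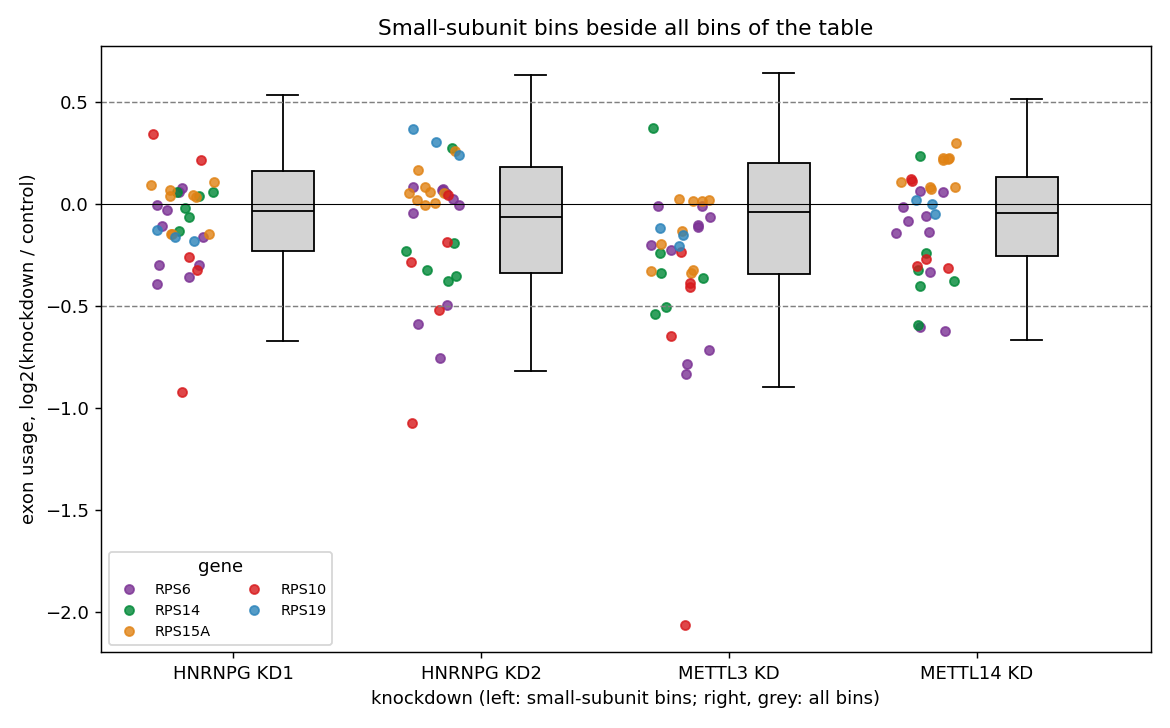
Exon usage changes (log2 of knockdown over control, vertical axis) in each of the 4 knockdowns. Points are the 33 small-subunit bins, coloured by gene, with sideways scatter for sight only, and grey boxes beside them show all 2635 bins (median, quartiles, whiskers at the 5th and 95th percentiles). Dashed lines mark -0.5 and 0.5. The lowest point in METTL3 knockdown is RPS10 exon bin 49 at -2.06, and no point is above 0.5.

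RPS6 encodes the 40S protein that S6 kinases phosphorylate downstream of mTOR. Its model had 10 listed bins within 1437 bp of chromosome 9 (hg19, minus strand), and they formed 3 groups along the gene. In METTL3 knockdown all 10 listed bins were below 0. The middle group, exon bins 27, 28 and 29, had the lowest values of the gene in KD2, METTL3 and METTL14 knockdown, and bins 28 and 29 had the lowest in KD1. Exon bin 29 (chr9:19380169-19380187, 19 bp) had -0.39 in KD1, -0.497 in KD2, -0.83 in METTL3 knockdown and -0.60 in METTL14 knockdown in the authors' deposited table. Exon bin 28 (chr9:19380086-19380168, 83 bp) touches it and had -0.36, -0.59, -0.79 and -0.62 in the same order, by the authors' deposited table. The next bin, exon bin 27 (chr9:19379760-19380085, 326 bp), had -0.16, -0.75, -0.72 and -0.34 for those knockdowns in turn, from the authors' deposited table. In METTL3 knockdown the usage of these 3 bins was thus 0.562 to 0.608 of control. All 3 reached the size of 0.5 in METTL3 knockdown, bins 27 and 28 in KD2, bins 28 and 29 in METTL14 knockdown, and none in KD1. Bin 29 in KD2 was the small-subunit value just short of that size.

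On both sides of this stretch the RPS6 values were closer to 0 in KD2, METTL3 and METTL14 knockdown, and in KD1 some at the 5′ edge were not. Towards the 3′ end of the listed stretch, exon bin 22 (chr9:19378917-19379460, 544 bp) lay between -0.06 and -0.01 in all 4 knockdowns of the authors' deposited table. Bins of the model numbered below 21, further 3′, were not listed. Exon bin 21 (chr9:19378801-19378916, 116 bp), the bin nearest to the single listed m6A site of the gene (position 19378791, 10 bp away), lay between -0.01 and 0 in all 4 comparisons of the authors' deposited table. Exon bins 27, 28 and 29, with the lowest usage changes of the gene in KD2, METTL3 and METTL14 knockdown, were 969 to 1378 bp from that site. At the 5′ edge, 5 bins of 1 to 11 bp (exon bins 34, 35, 36, 39 and 40) ranged in the authors' deposited table from -0.30 to 0.08 in KD1, 0.03 to 0.08 in KD2, -0.23 to -0.07 in METTL3 and -0.15 to 0.06 in METTL14 knockdown. In KD1 these edge bins were split, with bins 39 and 40 both at -0.30 and bins 34 and 35 at 0.06 and 0.08 in the authors' deposited table. None of them reached 0.5.

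**Figure D2:**
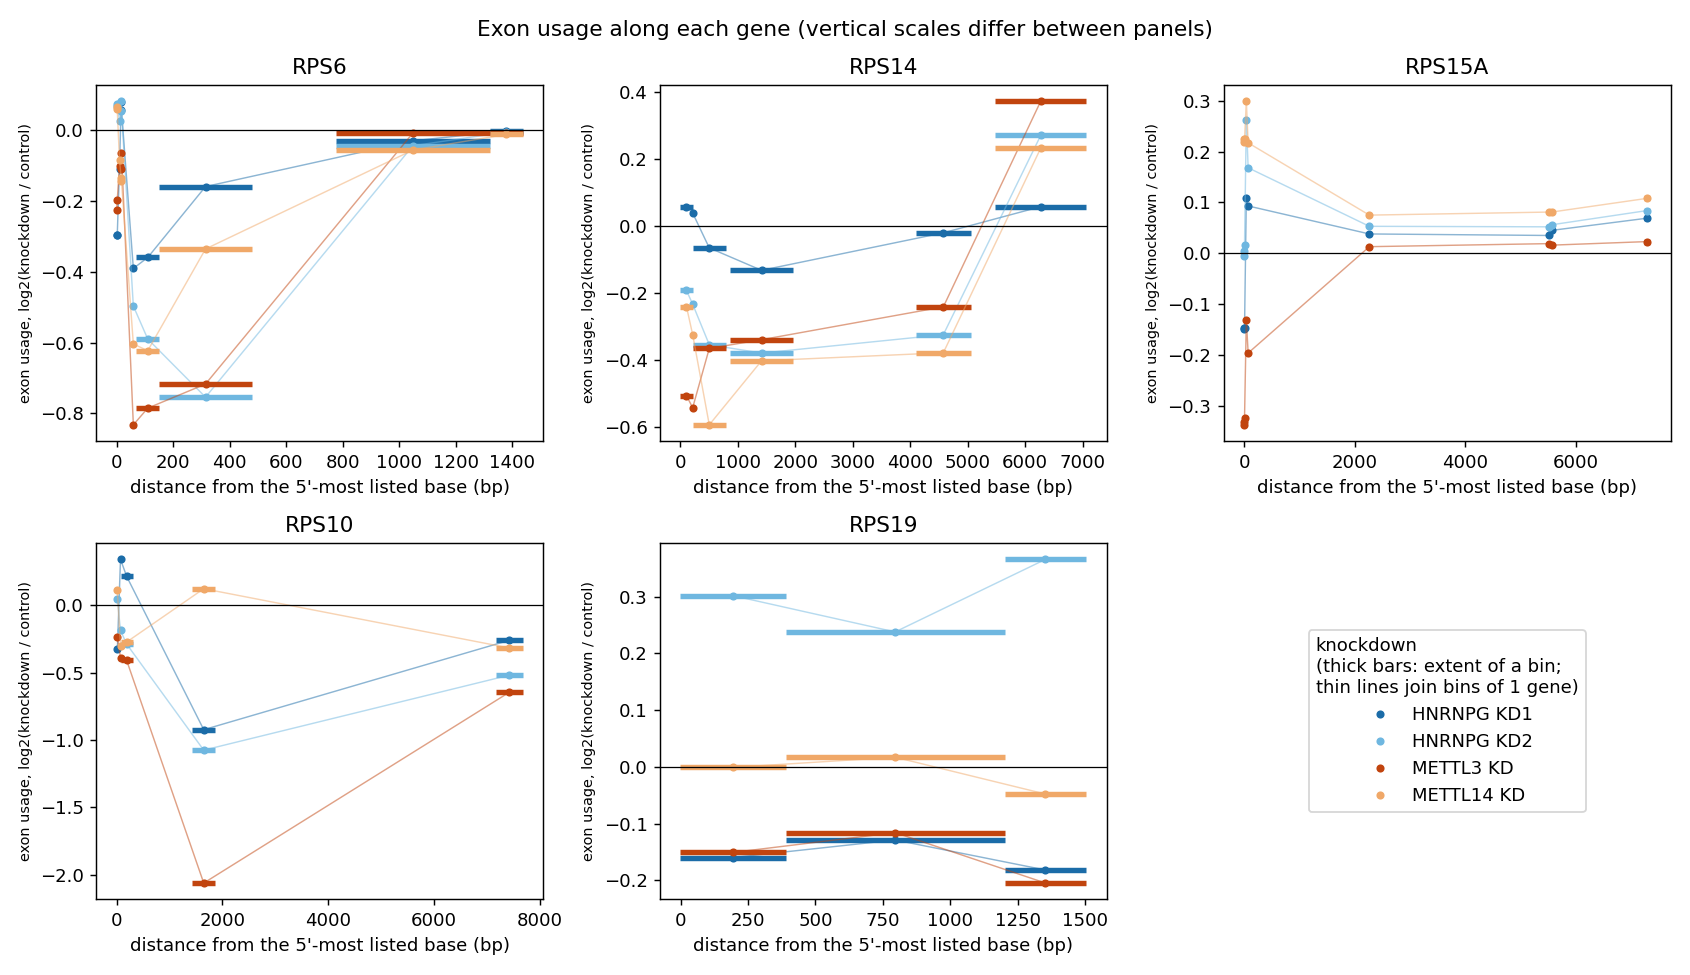
Exon usage change (log2 of knockdown over control, vertical axes, which differ between panels) against distance in bp from the 5′-most listed base of each gene. Colours are the 4 knockdowns, thick bars the extent of each bin, and thin lines join bins of 1 gene. The RPS6 panel dips between the 5′ edge and the 3′-most listed bins, which lie near 0. The RPS14 panel is below 0 until its 3′ bin in all knockdowns but KD1.

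RPS14, a protein of the 40S platform whose gene lies in the region lost in the 5q- form of myelodysplastic syndrome, had 6 listed bins over 7067 bp of chromosome 5 (hg19, minus strand). In KD2, METTL3 and METTL14 knockdown its 3′ bin differed in sign from the others, while in KD1 3 of the 6 bins were above 0. Exon bin 1 (chr5:149822199-149823785, 1587 bp), the longest small-subunit bin, had 0.06 in KD1 and 0.27 in KD2, and 0.37 in METTL3 and 0.23 in METTL14 knockdown, in the authors' deposited table, and it was the highest bin of the gene in each of them. The 0.37 was also the highest value of any of the 33 bins in METTL3 knockdown. All 5 other RPS14 bins were below 0 in KD2, METTL3 and METTL14 knockdown, in the authors' deposited table.

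The RPS14 bins called lower were 2 in METTL3 and 1 in METTL14 knockdown. The METTL3 ones were at the 5′ end, exon bin 25 (chr5:149829049-149829054, 6 bp) at -0.54 and exon bin 26 (chr5:149829055-149829265, 211 bp) at -0.51 in the authors' deposited table. In METTL14 knockdown the same bins had -0.32 and -0.24 there, and the called bin was instead exon bin 24 (chr5:149828477-149829048, 572 bp), at -0.59 in the authors' deposited table. Bin 24 had -0.36 in METTL3 knockdown, -0.35 in KD2 and -0.06 in KD1 in the authors' deposited table. The 3 bins touch one another, and whether METTL3 and METTL14 knockdown differ in them was not tested.

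Exon bin 22 of RPS14 (chr5:149827310-149828395, 1086 bp) was the only small-subunit bin that held a listed m6A site, at position 149828250. It had -0.13 in KD1 and -0.38 in KD2, and -0.34 in METTL3 and -0.40 in METTL14 knockdown, in the authors' deposited table. Exon bin 14 (chr5:149824205-149825171, 967 bp), 3079 bp from that site, had the near values of -0.02, -0.32, -0.24 and -0.38 in the same order, by the authors' deposited table. The spread over the gene differed between the HNRNPG knockdowns. The RPS14 bins lay between -0.13 and 0.06 in KD1 and between -0.38 and 0.27 in KD2 in the authors' deposited table.

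RPS10, a 40S protein near the mRNA entry side that is ubiquitinated when ribosomes stall and is mutated in Diamond-Blackfan anaemia, held the lowest small-subunit value of the table. In the model RPS10andNUDT3, 5 bins within 7675 bp of chromosome 6 (hg19, minus strand) were placed in RPS10, whose RefSeq length is 8616 bp, and a stretch of 129685 bp without a listed bin separated them from the 9 bins of NUDT3, a hydrolase of diphosphoinositol polyphosphates. RPS10 exon bin 49 (chr6:34392011-34392445, 435 bp) had -0.92 in KD1 and -1.08 in KD2, and -2.06 in METTL3 and 0.12 in METTL14 knockdown, in the authors' deposited table. Its usage was thus 0.239 of control in METTL3 knockdown and 1.09 of control in METTL14 knockdown. It ranked 15 from the lowest of the 2635 bins in METTL3 knockdown, 57 in KD1, 63 in KD2 and 1948 in METTL14 knockdown. It was the single small-subunit bin that reached 0.5 in both HNRNPG knockdowns. Whether METTL3 and METTL14 knockdown differ in this bin was not tested, and both were set against the same controls.

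The remaining RPS10 bins were nearer to 0 than bin 49 in KD1, KD2 and METTL3 knockdown, while in METTL14 knockdown bins 46, 57 and 58 were further from 0. Exon bin 46 (chr6:34386202-34386700, 499 bp), the 3′-most, was below 0 in each comparison, with -0.26 in KD1 and -0.52 in KD2, and -0.65 in METTL3 and -0.32 in METTL14 knockdown, in the authors' deposited table. Nearer the 5′ end, exon bin 57 (chr6:34393573-34393798, 226 bp) had 0.22, -0.29, -0.41 and -0.27 for those knockdowns in turn, from the authors' deposited table, and exon bin 58 (6 bp), which touches it, had 0.34, -0.19, -0.39 and -0.31. The 0.34 was the highest value of any small-subunit bin in KD1. The 5′-most bin, exon bin 67 (chr6:34393846-34393876, 31 bp), had -0.33, 0.04, -0.24 and 0.11 in the same order, by the authors' deposited table. The 12 listed m6A sites of the joined model lay between positions 34285661 and 34358112, all in the stretch between the listed bins of the 2 genes. The nearest was 28090 bp from an RPS10 bin.

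RPS15A, a core 40S protein needed for subunit assembly, shares the model ARL6IP1andRPS15A with ARL6IP1, a membrane protein that shapes the endoplasmic reticulum. A stretch of 1323 bp without a listed bin separated 9 bins of RPS15A from 9 of ARL6IP1 on chromosome 16 (hg19, minus strand), and the ARL6IP1 bins spanned 9886 bp against a RefSeq length of 9883 bp. No RPS15A bin reached 0.5 in any knockdown. Its 4 bins away from the 5′ end (exon bins 13, 20, 21 and 25, which begin 2251 to 7235 bp from the 5′-most listed base) lay close together and above 0 throughout. They ranged from 0.04 to 0.07 in KD1, from 0.05 to 0.08 in KD2, from 0.01 to 0.02 in METTL3 and from 0.08 to 0.11 in METTL14 knockdown, by the authors' deposited table.

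The 5 bins at the 5′ end of RPS15A departed further from 0 than the others in KD1, METTL3 and METTL14 knockdown. In KD2 only exon bins 36 and 37 did. All 5 were below 0 in METTL3 and above 0 in METTL14 knockdown. Exon bin 37 (chr16:18801612-18801631, 20 bp) had 0.11 in KD1 and 0.26 in KD2, and -0.13 in METTL3 and 0.30 in METTL14 knockdown, in the authors' deposited table. Exon bin 36 (chr16:18801566-18801611, 46 bp), which touches it, had 0.09, 0.17, -0.20 and 0.22 for those knockdowns in turn, from the authors' deposited table. Exon bins 39, 40 and 41 (chr16:18801654-18801659, 1 to 3 bp each) had -0.15 in KD1, -0.01 to 0.02 in KD2, -0.34 to -0.32 in METTL3 and 0.22 in METTL14 knockdown in the authors' deposited table. All 9 RPS15A bins were above 0 in METTL14 knockdown, while 5 of the 9 were below 0 in METTL3 knockdown. The joined model's 2 listed m6A sites (positions 18798141 and 18798488) lay between RPS15A exon bins 21 and 25, in no listed bin, and the nearest was 897 bp from exon bin 25.

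In joined models the usage of 1 gene is measured against its neighbour too, so both genes' values are given. The bins of RPS15A and ARL6IP1 overlapped in METTL3 knockdown but not in KD1, KD2 or METTL14 knockdown, and those of RPS10 and NUDT3 overlapped in all but METTL3 knockdown. The RPS15A bins had medians of 0.04 in KD1 and 0.05 in KD2, and -0.13 in METTL3 and 0.22 in METTL14 knockdown, and the ARL6IP1 bins had medians of -0.27, -0.37, -0.03 and -0.16 in that order, from the authors' deposited table. All 9 ARL6IP1 bins were below 0 in every comparison of the authors' deposited table. The RPS10 bins had medians of -0.26, -0.29, -0.41 and -0.27, and the NUDT3 bins -0.40, -0.04, 0.22 and -0.04, in the same order of knockdowns, from the authors' deposited table. In METTL3 knockdown all 5 RPS10 bins were below 0 and all 9 NUDT3 bins above 0 in the authors' deposited table. A change in the level of either gene and a change in the splicing of the other cannot be told apart in such a model. The RPS10 bins in METTL3 knockdown spread from -2.06 to -0.24 and the NUDT3 bins from 0.13 to 0.36, in the authors' deposited table.

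**Figure D3:**
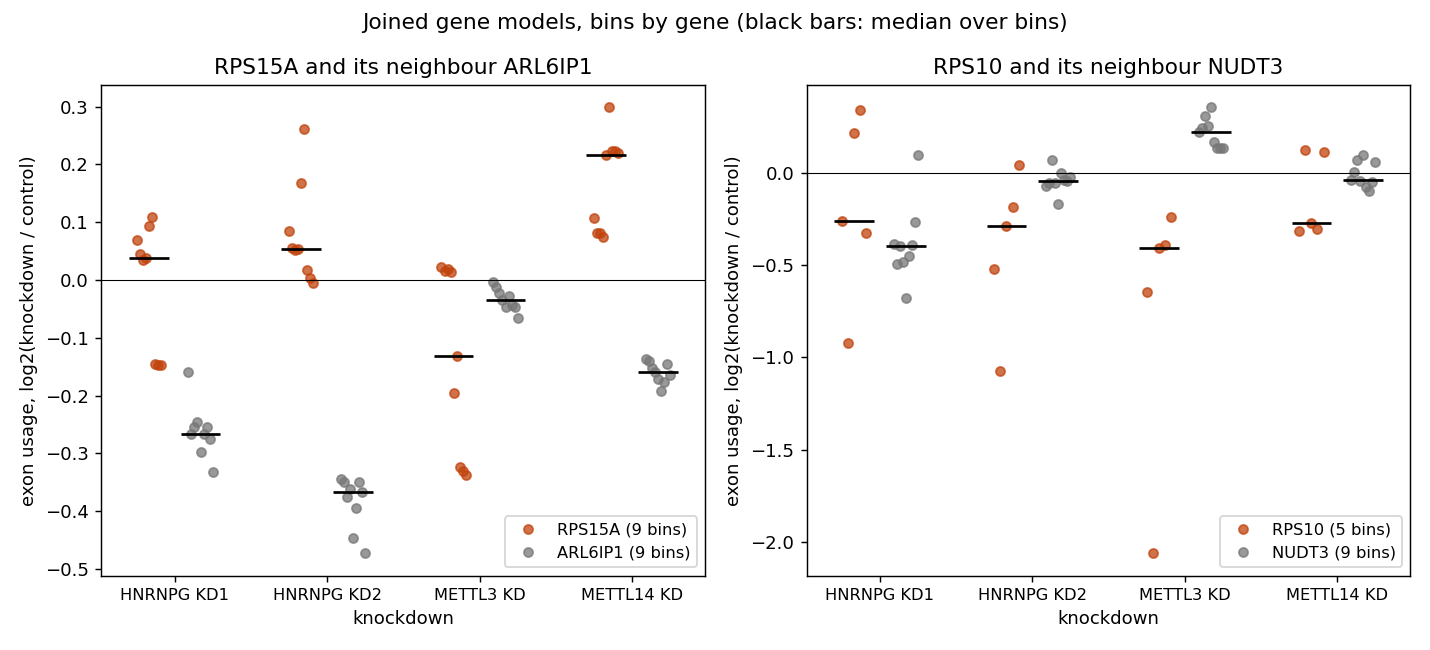
Exon usage change (log2 of knockdown over control, vertical axes, which differ between panels) in the 4 knockdowns for the 2 joined models. The ribosomal gene's bins are to the left (RPS15A, 9 bins; RPS10, 5 bins) and the neighbour's to the right (ARL6IP1 and NUDT3, 9 bins each), with black bars at the medians. ARL6IP1 bins lie below 0 throughout, and the NUDT3 and RPS10 bins do not overlap in METTL3 knockdown.

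RPS19, a 40S protein needed to mature the 18S rRNA and the gene most often mutated in Diamond-Blackfan anaemia, had 3 touching bins over 1505 bp of chromosome 19 (hg19, plus strand). They moved as 1 block, with opposite signs in the 2 HNRNPG knockdowns. Exon bin 28 (chr19:42376690-42376992, 303 bp) had -0.18 in KD1 and 0.37 in KD2, and -0.21 in METTL3 and -0.05 in METTL14 knockdown, in the authors' deposited table. Exon bin 26 (chr19:42375488-42375877, 390 bp) had -0.16, 0.30, -0.15 and -0.001 in the same order, by the authors' deposited table, and exon bin 27 (chr19:42375878-42376689, 812 bp) had -0.13, 0.24, -0.12 and 0.02. Exon bin 28 at 0.37 was the highest small-subunit value in KD2. None of the 3 bins reached 0.5. The 6 listed m6A sites of the gene (positions 42365259 to 42373979) all lay upstream of these bins, the nearest at 1509 bp.

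Medians over the listed bins of each gene give the order of the genes in METTL3 knockdown, where all 5 were below 0: RPS10 at -0.41, RPS14 at -0.35, RPS6 at -0.16, RPS19 at -0.15 and RPS15A at -0.13, from the authors' deposited table. The SD over bins was 0.75 for RPS10, 0.33 for RPS14, 0.33 for RPS6, 0.04 for RPS19 and 0.16 for RPS15A, and genes next to each other in this order differ by less than these SDs. With bins of at least 20 bp alone, the RPS15A median was 0.01, and with the NUDT3 bins included the RPS10 median was 0.14 in METTL3 knockdown, from the authors' deposited table. In METTL14 knockdown the medians ran from -0.35 in RPS14 to 0.22 in RPS15A, with -0.27 in RPS10, -0.11 in RPS6 and -0.001 in RPS19. In KD2 they were -0.29 in RPS10, -0.28 in RPS14, 0.01 in RPS6, 0.05 in RPS15A and 0.30 in RPS19, and in KD1 they were -0.26 in RPS10, -0.16 in RPS19, -0.14 in RPS6, 0.01 in RPS14 and 0.04 in RPS15A, all from the authors' deposited table. The libraries were bulk RNA, so a change in some of the cells and a smaller one in all of them cannot be told apart.

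**Figure D4:**
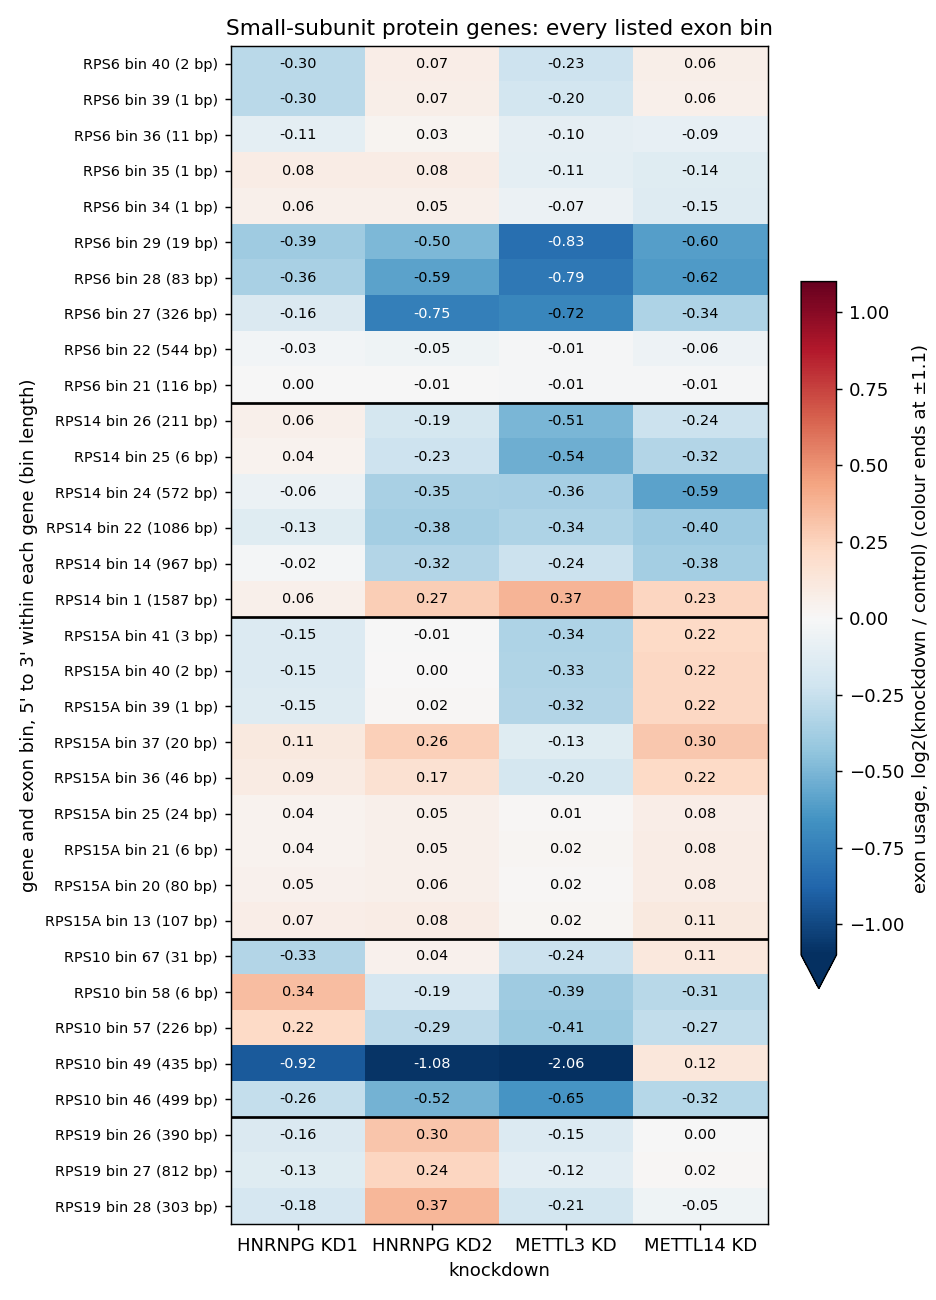
Every listed bin of the 5 small-subunit genes, 5′ to 3′ within each gene (rows, with bin length), in the 4 knockdowns (columns). Colour and number give the exon usage change, log2 of knockdown over control, and the colour scale ends at -1.1 and 1.1. The METTL3 column is below 0 (blue) in 28 of 33 rows, and its lowest cell is RPS10 exon bin 49 at -2.06.

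Other small-subunit genes in the table were RPS2, RPS3 and RPS3A, each in a model with small nucleolar RNAs, and RPS24, with 19 bins in all. In METTL3 knockdown 2 of these bins were lower and 2 higher by at least 0.5 (10.5% each, against 14.8% and 7.63% of all bins), and 15 of 19 were below 0, with a median of -0.09. In METTL14 knockdown 2 were lower (10.5%, against 10.6% of all bins) and none higher by that size, and no bin reached it in both KD1 and KD2. Their lowest value in the authors' deposited table was -0.83 in KD2, in exon bin 17 of RPS2andSNORA64andSNORA10. Their highest was 0.98 in METTL3 knockdown, in exon bin 40 of RPS3andSNORD15B, which is above all small-subunit values given before.

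Partners of the 40S subunit were set beside these genes as lists by function. Models with large-subunit genes had 63 bins in 9 models, and the TCEB3 bins of the joined model RPL11andTCEB3 were not separated. Of the 63, 12 were lower (19.0%, against 14.8% of all bins) and 2 higher (3.17%, against 7.63%) by at least 0.5 in METTL3 knockdown, with 38 of 63 below 0. The median of the 63 in METTL3 knockdown was -0.14, against -0.23 in the 33 small-subunit bins and -0.04 over all bins. In METTL14 knockdown 7 were lower (11.1%, against 10.6% of all bins) and 2 higher (3.17%, against 5.46%) by that size, and 2 were lower in both KD1 and KD2 (3.17%, against 4.1%). Without RPL11andTCEB3, 11 of 46 bins were lower (23.9%) and 1 higher (2.17%) in METTL3 knockdown. There, 28 of the 46 were below 0 (60.9%) and their median was -0.21, near that of the small-subunit bins. In METTL14 knockdown 7 of the 46 were lower (15.2%) and 2 higher (4.35%), and 2 were lower in both KD1 and KD2 (4.35%). The extremes of the 63 bins in the authors' deposited table were -3.91 in METTL3 knockdown, in exon bin 9 of RPL11andTCEB3, and 1.81 in METTL14 knockdown, in exon bin 24 of RPL37andSNORD72. Initiation factors that bind the 40S subunit had 15 bins in 5 models, of which none was lower (against 14.8% of all bins) and 2 were higher (13.3%, against 7.63%) by at least 0.5 in METTL3 knockdown. In METTL14 knockdown 1 was lower and 1 higher by that size (6.67% each, against 10.6% and 5.46% of all bins), and 1 was higher in both KD1 and KD2 (6.67%, against 3.04%). Both extremes of that list were in EIF3K, at -0.97 in METTL14 knockdown (exon bin 27) and 0.91 in KD1 (exon bin 21) in the authors' deposited table. Of 40S assembly factors the table held HEATR1, with 3 bins between -0.77 and 0.12 in METTL3 knockdown, the lowest and the highest of its values, in the authors' deposited table. No difference between these lists and the 5 small-subunit genes was tested.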

How the data were processed

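RNA-seq libraries were stranded mRNA libraries, per the labels' protocols. DEXSeq is named in the sample descriptions, and hg19, Cuffdiff, Cufflinks, TopHat 1.1.4, Bowtie 1.0.0 and Trimmomatic per the submitters' processing notes, without their roles. The values are log2 ratios of exon usage, control over knockdown, which the authors deposited per the file headers. Normalization, counting, DEXSeq version and the rule for listing a bin remain not given in the sources used here. The depth per library is unknown.

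The sign was turned to knockdown over control. Coordinates are hg19 as deposited. Joined models were separated at the stretch of over 100 bases without a listed bin that gave the upstream gene the span closest to its RefSeq length, a rule chosen after the table was examined. The members and gene lists were chosen with earlier results of these data known. All member bins were described, named where they reached 0.5 in a knockdown, were the highest or lowest of a gene or held an m6A site, with further bins added for context after their values were seen. Calls were checked on a made-up table with known answers. Coding, untranslated or intronic status of bins was not analysed here. Python 3.11.15, pandas 2.3.3, numpy 2.4.6 and matplotlib 3.10.9 were used.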

Additional observations from a re-analysis of the deposited data

How the results depend on the processing

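Counts of called bins depend on the size asked for. At 0.25 in place of 0.5, lower bins numbered 4 in both HNRNPG knockdowns, 14 in METTL3 and 10 in METTL14 knockdown, against 14.3%, 32.1% and 25.7% of all bins (12.1%, 42.4% and 30.3% of the 33). Higher bins numbered 0, 1 and 1, against 9.15%, 20.4% and 14.3% of all bins. At 1 there were 0, 1 and 0 lower bins, against 0.569%, 3.95% and 1.71% of all bins, and no higher ones. KD2 alone gave 4 lower bins where KD1 and KD2 together gave 1. Bins of at least 20 bp, and subtracting the median of all bins, left each count within 1.5 times. With single-gene models alone as the background, 17.3% of bins were lower by 0.5 in METTL3, 12.1% in METTL14 and 5.11% in both HNRNPG knockdowns. The small-subunit shares were not restricted in this way and kept all 33 bins, those of the joined models included. Of the single-gene members, RPS6 had 3 of 10 bins lower in METTL3 and 2 in METTL14 knockdown. RPS14 had 2 of 6 and 1, and RPS19 had none of 3. None of their bins was lower by 0.5 in both HNRNPG knockdowns.

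Gene medians changed sign in 13 of 88 recalculations and moved by at least the SD over the gene's bins in 10. With the neighbour's bins included, the RPS15A median was -0.15 in KD1, -0.18 in KD2 and -0.031 in METTL14 knockdown, and the RPS10 median -0.04 in METTL14 knockdown. Bins of at least 20 bp gave RPS6 -0.32 in KD2 and RPS15A 0.11 in METTL14 knockdown, where weighting by bin length gave RPS15A 0.13. Subtracting the median of all bins gave RPS19 -0.12 in KD1, 0.37 in KD2 and 0.042 in METTL14 knockdown. Beyond what was left out or subtracted, the cause was not tested. No bin was listed more than once. No paired analysis was possible because the table holds no value per library, and leaving out replicates was not run for the same reason.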
